A study of Mus musculus with 64 samples.

Results

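Glycolysis and hypoxia-response genes were examined as a set of 36 listed genes: glycolytic enzymes, carriers of glucose and lactate, pyruvate dehydrogenase kinases, Hif1a, its prolyl hydroxylases and other genes known to be induced by low oxygen. The list was given by name, and each gene was read from the brightest probe set annotated with its symbol alone. Of the 36 genes, 34 had such a probe set, out of 18820 genes with one in all. Gpi1 and Eno1 had none and were not analysed here. Ero1l is carried under its current symbol, Ero1a, in the reference gene table. No threshold on measured values set the list.

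The arrays measured total RNA of macrophages that had been grown from the femurs of male mice aged 7 to 8 weeks, of the strain BALB/c or the strain C57BL/6. The cells were cultured with CSF1, the macrophage growth factor, at 10000 U/ml and treated on day 7 of culture. Each of the 32 groups was 2 wells on 2 Affymetrix arrays, 64 arrays in all, with 250 ng of RNA from each well. The labels do not say how many mice were used or whether the wells came from separate preparations, so the p-values measure only how far wells of 1 group lay apart, which may be technical.

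In BALB/c the groups were untreated cells at 0 h and cells treated for 1, 2, 4, 8 or 24 h with 1 of 3 agents: LPS at 5 ng/ml, or either interferon, IFN-beta or IFN-gamma, at 10 U/ml. In C57BL/6 they were untreated cells at 0 h and cells treated for the same times with LPS at 50, 5 or 0.5 ng/ml. There were no untreated wells at later times, so time in culture and treatment cannot be told apart in a change from 0 h. LPS is a bacterial wall component sensed by Tlr4. IFN-beta and IFN-gamma are the type I and type II interferons tested beside it.

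Glycolysis splits glucose into pyruvate, which is either oxidised in mitochondria or reduced to lactate and exported. The transcription factor HIF-1 raises many of these genes. Its alpha subunit is marked for degradation by prolyl hydroxylases when oxygen is present and is known to accumulate in macrophages exposed to LPS even without hypoxia. A macrophage activated by LPS is known for taking up more glucose and releasing lactate, and RNA levels alone do not show the activity of HIF-1, which is set largely at the protein level.

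HIF-1 is known to bind the core sequences ACGTG and GCGTG, so the 250 bases upstream of each transcription start were searched for both, on both strands. Of the 36 listed genes, 34 had a promoter in the RefSeq table (GRCm38.p6), and the window of the first listed start held a match in 27 of them (79.4%). Over all 27025 genes of the table the share was 38.6%, and base composition was not matched between these sets. These 34 are not the 34 genes measured: Gpi1 and Eno1 are counted here, and Slc2a3 and Ndrg1 had no promoter in the table. The windows of 6 members are printed because they carry the course shapes described below: Egln3, Slc16a3, Bnip3 and Ero1l were high at 24 h of LPS, Eno2 was higher from 1 h on, and Pdk1 was low at 8 h. Each runs 5′ to 3′ on the strand of its gene and ends at the base before the start, with ACGTG or GCGTG of either strand in capitals (CACGT or CACGC where the match lies on the other strand). The windows lie at chr12:54203875-54204124 on the minus strand (Egln3), chr11:120948817-120949066 on the plus strand (Slc16a3), chr7:138909507-138909756 on the minus strand (Bnip3), chr14:45318573-45318822 on the minus strand (Ero1l), chr6:124769674-124769923 on the minus strand (Eno2) and chr2:71872974-71873223 on the plus strand (Pdk1).
Egln3: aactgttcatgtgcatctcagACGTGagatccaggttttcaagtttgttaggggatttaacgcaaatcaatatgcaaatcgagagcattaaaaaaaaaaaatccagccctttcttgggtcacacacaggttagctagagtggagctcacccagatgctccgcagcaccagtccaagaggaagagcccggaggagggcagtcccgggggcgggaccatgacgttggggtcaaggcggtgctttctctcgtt
Slc16a3: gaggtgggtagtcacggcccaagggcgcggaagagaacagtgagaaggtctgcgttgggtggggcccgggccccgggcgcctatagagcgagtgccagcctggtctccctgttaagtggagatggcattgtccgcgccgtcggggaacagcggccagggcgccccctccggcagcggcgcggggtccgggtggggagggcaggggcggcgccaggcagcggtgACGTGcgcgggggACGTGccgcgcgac
Bnip3: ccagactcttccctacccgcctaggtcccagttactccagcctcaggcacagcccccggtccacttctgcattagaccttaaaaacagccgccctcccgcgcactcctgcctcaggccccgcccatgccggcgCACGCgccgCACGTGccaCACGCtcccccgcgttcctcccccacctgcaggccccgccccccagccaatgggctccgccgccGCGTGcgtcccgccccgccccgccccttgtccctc
Ero1l: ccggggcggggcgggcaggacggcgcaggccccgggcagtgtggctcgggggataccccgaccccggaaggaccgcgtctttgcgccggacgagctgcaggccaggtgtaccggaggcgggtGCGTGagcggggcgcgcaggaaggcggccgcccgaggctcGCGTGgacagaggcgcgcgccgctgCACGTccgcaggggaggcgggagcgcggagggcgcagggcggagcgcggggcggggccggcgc
Eno2: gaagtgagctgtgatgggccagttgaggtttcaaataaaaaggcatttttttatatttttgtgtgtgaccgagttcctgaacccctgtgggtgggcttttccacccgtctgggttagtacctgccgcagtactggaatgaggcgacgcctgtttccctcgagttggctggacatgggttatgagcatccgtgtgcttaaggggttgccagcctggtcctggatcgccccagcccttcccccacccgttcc
Pdk1: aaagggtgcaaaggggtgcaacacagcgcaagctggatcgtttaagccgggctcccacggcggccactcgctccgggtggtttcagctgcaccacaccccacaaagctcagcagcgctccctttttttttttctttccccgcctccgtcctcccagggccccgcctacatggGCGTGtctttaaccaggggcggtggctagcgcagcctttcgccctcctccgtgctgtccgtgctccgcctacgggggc
Egln3 and Pdk1 held 1 match each, Slc16a3 held 2, Ero1l held 3 and Bnip3 held 5. In Bnip3, 1 CACGTG gave a match on each strand, and both were counted. Eno2 had 0 matches in this window. The window of Vegfa, the member that rose most at 24 h of LPS, held no match. Gapdh, Pgam1 and Ldha, among the members that changed least with LPS, held matches. Whether matches go with the course shapes was not tested. A match describes these letters and is not a binding site shown by these data.

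The cells carried the RNA of macrophages: all 10 macrophage markers had a mean above the 40th percentile of log2 values (4.19). Their summed intensity ranged from 35886 to 47083 over the group means, against 206 to 910 for 9 granulocyte markers, 72.7 to 251 for 6 dendritic cell markers, 70.7 to 92.4 for 6 lymphocyte markers, 30.7 to 40.4 for 2 erythroid markers and 123 to 737 for 6 stromal markers. In bulk RNA, fewer cells of a type and less RNA per cell cannot be told apart. In 5 groups, 1 array differed from its replicate by more than 1.5 log2 units in 12 to 80 genes, with no member among them. In BALB/c these were IFN-gamma at 2 h and 4 h. In C57BL/6 they were LPS 50 and 0.5 ng/ml at 1 h and 5 ng/ml at 24 h. A pattern in probe sets without a gene parted 53 arrays from 11, and no label matches this division exactly. Both IFN-beta arrays at 4 h and 1 of the 2 arrays in each of 9 groups, BALB/c LPS at 24 h among them, belonged to the smaller set. In these 9 groups that array was replicate 2, except in IFN-gamma at 4 h, where it was replicate 1. Most arrays numbered replicate 2 were in the larger set.

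The C57BL/6 arrays labelled 0 h carried RNAs that LPS is known to induce. Nos2, the inducible nitric oxide synthase, stood at 10.63 and 10.45 (log2 intensity) there, against 3.54 and 3.78 in BALB/c at 0 h. Ifit1, an interferon-induced gene, stood at 10.55 and 10.27 against 6.44 and 6.89, and Ptgs2 at 11.30 and 10.99 against 5.46 and 5.78. Nos2 also differed between the 2 arrays labelled LPS 50 ng/ml at 1 h, at 10.17 in replicate 1 and 5.34 in replicate 2. So did Ifit1 (10.10 and 7.54), Mx1 (8.40 and 5.69) and Gbp2 (10.54 and 7.64). Tnf (13.06 and 13.09) and Irf1 (10.74 and 10.89) lay close. These 2 arrays are the 1 h reference at 50 ng/ml, so changes from 1 h at that dose are uncertain too. For each C57BL/6 course below, the members called from 0 h are therefore given with those called from 1 h. Values from 1 h are not printed for all of them. The stromal calls and some strain differences are given from 0 h alone. Comparisons between doses, which do not use the 0 h arrays, come first.

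Values below are log2 intensities, on which 1 unit is a doubling. Differences were tested in 1 limma fit of all 64 arrays, with the Benjamini-Hochberg adjustment taken across all 18820 genes. A gene was called changed over a course when the F-test over its 5 times had an adjusted p under 0.05 and at least 1 time differed by 1 or more. Its direction was that of the largest difference. Adjusted p-values given for 1 time are from limma's moderated test at that time. Counts of members at an unadjusted p under 0.05 carry no minimum change. They are given without the share of all genes at that threshold, so they cannot be read against a background.

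In BALB/c, LPS changed 19 of the 34 members, most of them upward and late. Against 0 h, 14 members were called higher and 5 lower, where 7.44% of all genes were called higher and 9.72% lower. Of the 14 risers, 13 had their largest difference at 24 h and Slc2a6 had it at 8 h. The 5 fallers, Slc2a3, Pdk1, Slc16a1, Ndrg1 and Egln1, had theirs at 8 h. The median size of the largest difference was 1.18 over the members and 0.42 over all genes. The heat map of members in BALB/c shows the late block of risers in the LPS course.

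**Figure D1:**
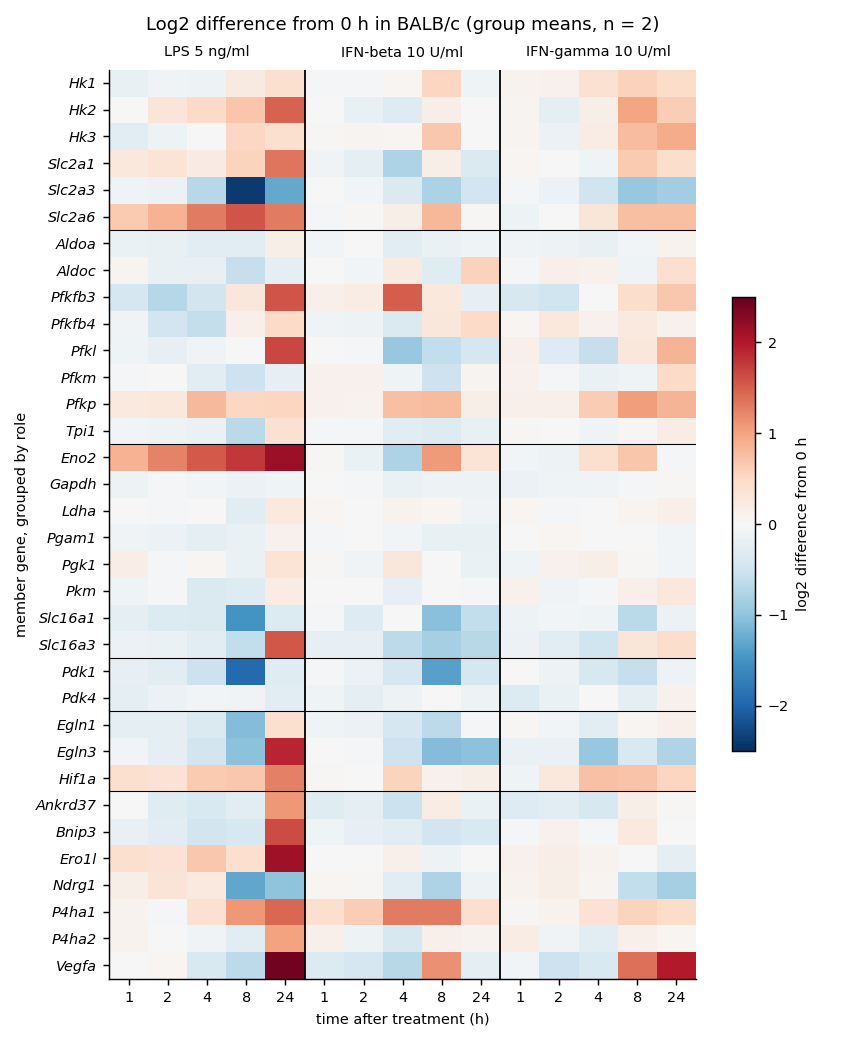
Each row is 1 of the 34 members and each column a BALB/c group; colour gives the log2 difference of the group mean (n = 2 arrays) from 0 h. The LPS column at 24 h holds most of the strong rises, led by Vegfa at 2.42 and Eno2 at 2.14, and the LPS column at 8 h holds the strongest fall, Slc2a3 at -2.39.

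Among the 6 hexokinases and glucose carriers, 3 rose (Hk2, Slc2a1 and Slc2a6) and Slc2a3 fell. Hk2, a hexokinase that phosphorylates glucose as it enters the cell, had array values of 7.50 and 7.65 at 0 h, 7.93 and 7.24 at 1 h, 7.92 and 7.83 at 2 h, 8.16 and 7.99 at 4 h, 8.20 and 8.34 at 8 h, and 9.14 and 8.96 at 24 h. Both 24 h arrays lay above the rest of the course, with a 24 h difference of 1.48 (SE 0.20, 2.78-fold, adjusted p = 1.2e-07). Slc2a1, the glucose carrier Glut1, had values of 11.28 and 11.20 at 0 h, 11.60 and 11.42 at 1 h, 11.57 and 11.57 at 2 h, 11.45 and 11.43 at 4 h, 11.79 and 11.79 at 8 h, and 12.55 and 12.59 at 24 h. It too was highest on both 24 h arrays, which did not overlap any other time, and the difference was 1.33 (SE 0.11, 2.52-fold, adjusted p = 1.8e-13). Slc2a3, the glucose carrier Glut3, moved the other way, with values of 8.94 and 8.87 at 0 h, 8.92 and 8.68 at 1 h, 8.84 and 8.66 at 2 h, 8.14 and 8.28 at 4 h, 6.34 and 6.68 at 8 h, and 7.67 and 7.59 at 24 h. Its 8 h arrays were the lowest of the course and the 24 h arrays the next lowest, with differences of -2.39 (SE 0.12, adjusted p = 1.1e-19) at 8 h and -1.27 at 24 h. Slc2a6, a glucose carrier of the macrophage lysosome, was higher on both arrays from 1 h on and differed most at 8 h, by 1.57 (SE 0.13, 2.97-fold, adjusted p = 8e-13). Measured from 1 h instead, its largest difference was 0.91, under the minimum. Hk1 and Hk3 were not called.

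Of the 8 enzymes of upper glycolysis, Pfkl and Pfkfb3 rose and 6 were not called. Pfkl, the liver-type phosphofructokinase that makes fructose 1,6-bisphosphate, had array values of 8.97 and 8.76 at 0 h, 8.99 and 8.51 at 1 h, 8.64 and 8.68 at 2 h, 8.72 and 8.81 at 4 h, 8.98 and 8.79 at 8 h, and 10.54 and 10.52 at 24 h. It stayed near its starting level through 8 h and was higher on both 24 h arrays, by 1.67 (SE 0.14, 3.17-fold, adjusted p = 1.7e-12). Pfkfb3, which makes the phosphofructokinase activator fructose 2,6-bisphosphate, had values of 8.42 and 8.51 at 0 h, 8.04 and 8.03 at 1 h, 7.79 and 7.72 at 2 h, 8.03 and 7.96 at 4 h, 8.70 and 8.80 at 8 h, and 10.01 and 10.07 at 24 h. It was first lower, with a 2 h difference of -0.71 (SE 0.12, adjusted p = 3.4e-05), and then higher, by 1.58 (SE 0.12, 2.99-fold, adjusted p = 3.5e-14) at 24 h, with no overlap between the 2 h, 0 h and 24 h arrays.

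In lower glycolysis and lactate handling, Eno2 and Slc16a3 rose, Slc16a1 fell and the 5 others measured were not called. Eno2, the enolase best known from neurons, had array values of 8.46 and 8.52 at 0 h, 9.50 and 9.22 at 1 h, 9.73 and 9.74 at 2 h, 10.04 and 10.01 at 4 h, 10.32 and 10.20 at 8 h, and 10.70 and 10.56 at 24 h. All 10 LPS arrays lay above both 0 h arrays, and the difference grew from 0.87 at 1 h to 2.14 (SE 0.13, 4.42-fold, adjusted p = 1.6e-16) at 24 h. Measured from 1 h, its largest difference was 1.27. Slc16a3, the lactate exporter Mct4, had values of 9.74 and 9.70 at 0 h, 9.61 and 9.55 at 1 h, 9.57 and 9.55 at 2 h, 9.44 and 9.50 at 4 h, 9.15 and 9.05 at 8 h, and 11.27 and 11.30 at 24 h. Both 8 h arrays were the lowest of the course and both 24 h arrays the highest, with differences of -0.62 (SE 0.08, adjusted p = 7.9e-09) and 1.56 (SE 0.08, 2.94-fold, adjusted p = 1.1e-19). Slc16a1, the lactate carrier Mct1, had an 8 h difference of -1.50 (SE 0.14, adjusted p = 6.5e-12) and one of -0.35 at 24 h.

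The 5 members of the set that changed least with LPS were Gapdh, Pgam1, Ldha, Aldoa and Pdk4, with largest differences of -0.14, -0.22, -0.27, -0.27 and -0.29. The first 4 are enzymes of the core pathway. Over all 32 groups, the group means of Gapdh spanned 0.23 log2 units, those of Pgam1 0.42, Aldoa 0.49, Ldha 0.52 and Pkm 0.62. At the other end, Eno2 spanned 3.77, Egln3 3.57, Vegfa 3.12, Pdk1 3.02 and Pfkfb3 2.98. Gapdh lay between 13.52 and 13.75 in its group means, and whether brightness narrows these ranges was not tested. Pdk4, which lay under the 40th percentile in all 32 groups, was dim. Where a member had several probe sets, the 24 h LPS change was -0.11 to 0.07 over 17 for Gapdh and 0.32 to 0.34 over 3 for Pgk1. It was 0.10 to 0.21 over 3 for Pgam1, 0.12 to 0.19 over 2 for Pkm and 1.43 to 1.63 over 2 for Bnip3. The 2 probe sets of Tpi1 differed more, giving 0.38 and 0.71, and their levels were 6.47 and 11.58.

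Pdk1, a kinase that shuts off pyruvate dehydrogenase, had array values of 7.52 and 7.60 at 0 h, 7.42 and 7.27 at 1 h, 7.29 and 7.27 at 2 h, 6.97 and 7.08 at 4 h, 5.48 and 5.74 at 8 h, and 7.12 and 7.39 at 24 h. Both 8 h arrays were low, with a difference of -1.95 (SE 0.16, adjusted p = 2e-13), and at 24 h its difference from 0 h was -0.30. The 8 h arrays overlapped no other time.

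The HIF-1 subunit and its hydroxylases were all called. Hif1a rose in steps, reading 10.20 and 10.09 at 0 h, 10.78 and 10.84 at 8 h and 11.21 and 11.61 at 24 h, with a 24 h difference of 1.27 (SE 0.14, 2.41-fold, adjusted p = 1e-09), and its largest difference from 1 h was 0.87, under the minimum. Egln3, the prolyl hydroxylase best known for being induced by HIF-1 itself, had array values of 5.70 and 5.62 at 0 h, 5.52 and 5.66 at 1 h, 5.41 and 5.43 at 2 h, 5.17 and 5.24 at 4 h, 4.41 and 4.85 at 8 h, and 7.41 and 7.73 at 24 h. Its 8 h arrays were the lowest of the course, near the 40th percentile of 4.19, and its 24 h arrays the highest, with differences of -1.03 (SE 0.21, adjusted p = 7.4e-05) and 1.90 (SE 0.21, 3.74-fold, adjusted p = 5.1e-10). Egln1, the main hydroxylase acting on Hif1a, had an 8 h difference of -1.08 (SE 0.11, adjusted p = 4.3e-11) and one of 0.39 at 24 h. Its call was lost without replicate 1 at 8 h (-0.998) and when measured from 1 h (-0.85).

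Of the 7 other hypoxia-induced genes, 5 rose and Ndrg1 fell. Vegfa, the growth factor of blood vessels, had array values of 6.88 and 6.91 at 0 h, 7.09 and 6.68 at 1 h, 6.93 and 6.95 at 2 h, 6.48 and 6.56 at 4 h, 6.17 and 6.32 at 8 h, and 9.48 and 9.16 at 24 h. Its 24 h arrays lay far above the rest and its 8 h arrays were the lowest, with differences of 2.42 (SE 0.17, 5.35-fold, adjusted p = 4.5e-15) and -0.66 (SE 0.17, adjusted p = 0.0017). Bnip3, a mitophagy receptor, had values of 8.92 and 9.03 at 0 h, 8.74 and 8.84 at 1 h, 8.74 and 8.68 at 2 h, 8.57 and 8.48 at 4 h, 8.50 and 8.64 at 8 h, and 10.43 and 10.77 at 24 h, and only the 24 h arrays exceeded those at 0 h. Its 24 h difference was 1.63 (SE 0.14, 3.09-fold, adjusted p = 1.2e-12). Ero1l, an oxidase of the endoplasmic reticulum, had values of 9.28 and 9.15 at 0 h, 9.49 and 9.73 at 1 h, 9.57 and 9.60 at 2 h, 9.73 and 10.06 at 4 h, 9.67 and 9.59 at 8 h, and 11.15 and 11.52 at 24 h. All its LPS arrays lay above 0 h, the 24 h arrays highest, by 2.12 (SE 0.12, 4.35-fold, adjusted p = 8.4e-18).

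P4ha1, a collagen prolyl hydroxylase subunit, was higher at 24 h by 1.44 (SE 0.10, 2.72-fold, adjusted p = 1.5e-14), and its relative P4ha2 stopped just short of the minimum change at 0.996. Ankrd37, an ankyrin repeat protein known as a HIF-1 target, was higher by 1.09 (SE 0.21, 2.13-fold, adjusted p = 5.6e-05). Without replicate 1 at 24 h this difference was 0.87, and without replicate 1 at 0 h it was 0.91, both under the minimum. Ndrg1, a stress-response gene that HIF-1 is known to raise, was lower, with differences of -1.30 (SE 0.10, adjusted p = 2.7e-14) at 8 h and -1.02 at 24 h. Beside these changes, 2 of 6 stromal markers also rose with LPS, Dcn by 4.12 and Pdgfrb by 3.25, while Col1a1, Col1a2, Col3a1 and Pdgfra were not called. The summed stromal level went from 181 at 0 h to 737 at 8 h and 498 at 24 h. It was 183 and 148 at 24 h of IFN-beta and IFN-gamma. The summed granulocyte level went from 438 at 0 h to 236 at 24 h of LPS, 272 at 24 h of IFN-beta and 206 at 24 h of IFN-gamma, so it was lower in all 3 courses. The macrophage level went from 37611 at 0 h to 44271, 42380 and 40300.1 in the same order. The part of these lists in the members' changes was not tested.

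**Figure D2:**
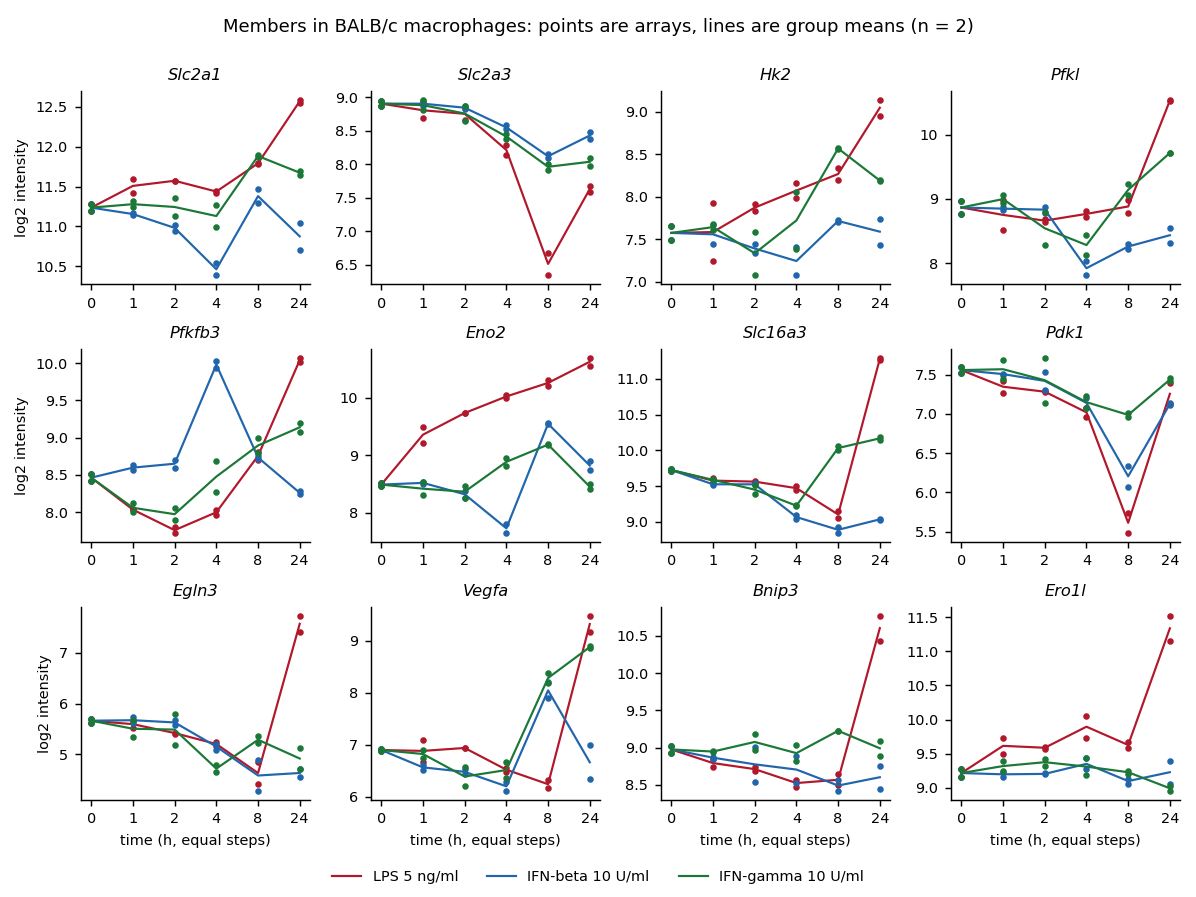
Log2 intensity (y axis) against time in hours (x axis, equal steps) for the 12 members with the largest differences between LPS and the interferons; points are arrays, lines are group means (n = 2), and colours are the 3 BALB/c courses. Egln3, Slc16a3, Bnip3, Ero1l and Pfkl turn upward under LPS between 8 and 24 h, Slc2a3 and Pdk1 dip at 8 h, and Pfkfb3 peaks at 4 h under IFN-beta.

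IFN-beta called fewer members than LPS: 4 higher and 3 lower of 34, against 4.05% and 3.87% of all genes. Pfkfb3 rose at 4 h, where its arrays read 9.93 and 10.03, by 1.52 (SE 0.12, 2.86-fold, adjusted p = 2.9e-13), and was back at 8.71 and 8.75 by 8 h. Both 4 h arrays were in the smaller set of 11. With the set as a covariate the difference was 1.63, and without those arrays the largest difference left was 0.27. P4ha1 rose by 1.29 (SE 0.10, 2.44-fold, adjusted p = 2e-12) at 8 h, Vegfa by 1.15 (SE 0.17, 2.21-fold, adjusted p = 1.3e-06) and Eno2 by 1.06 (SE 0.13, 2.09-fold, adjusted p = 5.3e-08). At 8 h 3 members fell: Pdk1 with a difference of -1.35 (SE 0.16, adjusted p = 9.2e-09), Egln3 with -1.08 (SE 0.21, adjusted p = 9.5e-05) and Slc16a1 with -1.05 (SE 0.14, adjusted p = 1.1e-07). Calls for Vegfa (0.99 without replicate 1 at 8 h), P4ha1 (0.90 from 1 h) and Slc16a1 (-0.95 and -0.94 when either of 2 arrays was left out) were lost under these alternatives. The 27 members not called had largest differences of at most 0.95 in size.

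IFN-gamma called 2 members higher and 0 lower by the limma test, against 3.1% and 2.27% of all genes. At an unadjusted p under 0.05 in limma's test, 15 members were higher and 9 lower over the course. Vegfa read 8.18 and 8.39 at 8 h and 8.90 and 8.85 at 24 h, above all earlier arrays, and its 24 h difference was 1.98 (SE 0.17, 3.94-fold, adjusted p = 7.6e-12). Pfkp, the platelet-type phosphofructokinase, rose by 1.05 (SE 0.11, 2.08-fold, adjusted p = 5.3e-10) at 8 h. From 1 h, Pfkfb3 was also called higher, at 1.08. The Pfkp call was lost from 1 h and without replicate 2 at 0 h, where the largest difference was 0.92 and 1.00. Hk2 stopped just short of the minimum at 0.996. Beside these changes, the summed dendritic cell level went from 85.5 at 0 h to 122 at 8 h and 251 at 24 h of IFN-gamma, with 1 of 6 markers called higher, and the granulocyte level from 438 to 206 at 24 h, with 1 of 9 called lower. Their part in the members' changes was not tested. The 3 BALB/c courses share their 0 h arrays, so their calls are not independent.

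Compared directly at the same times, LPS exceeded IFN-beta in 13 of 34 members and was lower in 2, against 6.19% and 8.06% of all genes. Of these 13, 12 differed most at 24 h. Egln3 read 7.41 and 7.73 at 24 h of LPS and 4.56 and 4.71 at 24 h of IFN-beta, a difference of 2.93 (SE 0.21, 7.62-fold, adjusted p = 6.9e-15). Vegfa read 9.48 and 9.16 against 6.99 and 6.34, a difference of 2.66 (SE 0.17, 6.30-fold, adjusted p = 4.4e-16). Slc16a3 read 11.27 and 11.30 against 9.03 and 9.04, a difference of 2.25 (SE 0.08, 4.75-fold, adjusted p = 7.8e-24). In all 3 the LPS arrays were higher with no overlap.

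Among the glycolytic members, Pfkl read 8.55 and 8.32 at 24 h of IFN-beta, and LPS was higher by 2.10 (SE 0.14, 4.28-fold, adjusted p = 3.8e-15). Slc2a1 read 11.05 and 10.70, and LPS was higher by 1.69 (SE 0.11, 3.24-fold, adjusted p = 2.9e-16). Hk2 read 7.74 and 7.44, and LPS was higher by 1.46 (SE 0.20, 2.75-fold, adjusted p = 1.9e-07). None of these LPS arrays overlapped the IFN-beta arrays. Eno2 differed most at 4 h, at 10.04 and 10.01 under LPS and 7.64 and 7.81 under IFN-beta, by 2.30 (SE 0.13, 4.93-fold, adjusted p = 6.9e-17). Ero1l was higher by 2.11, Bnip3 by 2.00, Slc2a6 by 1.28, Ankrd37 by 1.25, Hif1a by 1.12 and P4ha1 by 1.02, all at 24 h.

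Pfkfb3 crossed over between these courses: LPS stood below IFN-beta at 4 h, with a difference of -1.98 (SE 0.12, adjusted p = 1.6e-16), and above it at 24 h, with one of 1.78 (SE 0.12, adjusted p = 1.5e-15). Without the smaller set, to which both 4 h IFN-beta arrays belonged, it was called higher. Slc2a3 was lower under LPS at 8 h, at 6.34 and 6.68 against 8.08 and 8.15, a difference of -1.61 (SE 0.12, adjusted p = 2.1e-14). The calls for Hif1a and P4ha1 did not hold throughout. Without IFN-beta replicate 1 or LPS replicate 2 at 24 h, Hif1a differed by 0.88 to 0.92 and P4ha1 also stood under the minimum. Replicate 2 of both 24 h groups lay in the smaller set; on replicate 1 of each alone, Egln3 differed by 2.84, Vegfa by 2.49, Slc16a3 by 2.24 and Pfkl by 1.99.

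Against IFN-gamma, LPS was higher in 7 members and lower in 4, where 6.09% and 7.51% of all genes were called. Egln3 read 4.71 and 5.13 at 24 h of IFN-gamma, and LPS was higher by 2.65 (SE 0.21, 6.26-fold, adjusted p = 1.3e-13). Ero1l read 8.95 and 9.03, and LPS was higher by 2.34 (SE 0.12, 5.07-fold, adjusted p = 7.6e-19). Eno2 read 8.41 and 8.49, and LPS was higher by 2.18 (SE 0.13, 4.53-fold, adjusted p = 1.4e-16). These arrays did not overlap. Bnip3 was higher by 1.61, Slc16a3 by 1.11 and Ankrd37 by 1.07 at 24 h, and Slc2a6 by 1.00 at 4 h. Ankrd37 fell to 0.85 without LPS replicate 1 at 24 h, and Slc2a6 to between 0.88 and 0.95 under 4 alternatives.

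The members lower under LPS than under IFN-gamma were lower at 8 h. Vegfa differed most, at 6.17 and 6.32 under LPS and 8.18 and 8.39 under IFN-gamma, a difference of -2.04 (SE 0.17, adjusted p = 8.9e-13). By 24 h both courses had risen, to 9.48 and 9.16 and 8.90 and 8.85, a difference of 0.44 (SE 0.17, adjusted p = 0.045). The 8 h difference was -1.45 (SE 0.12, adjusted p = 3.5e-13) for Slc2a3, -1.37 (SE 0.16, adjusted p = 2.8e-09) for Pdk1 and -1.12 (SE 0.11, adjusted p = 3.2e-11) for Egln1. Pfkl, Slc2a1, Hk2 and Pfkfb3, which LPS raised above IFN-beta, differed from IFN-gamma at 24 h by 0.82, 0.90, 0.86 and 0.90, each under the minimum.

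**Figure D3:**
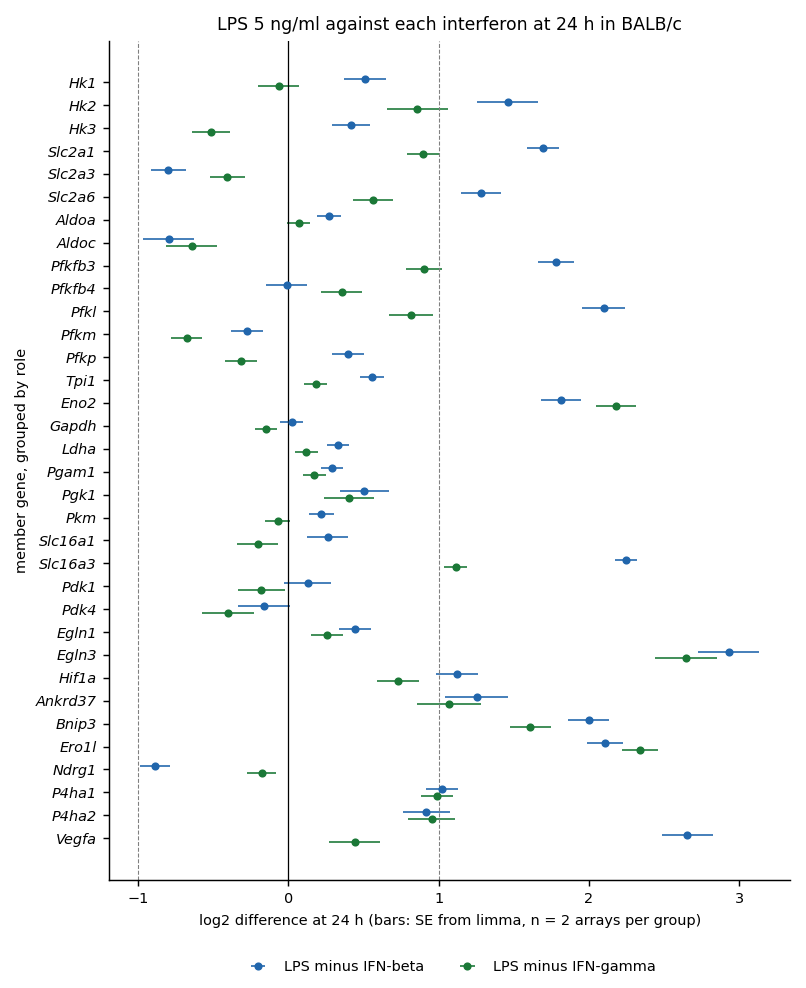
Log2 difference at 24 h (x axis) for each of the 34 members (y axis, grouped by role), LPS minus IFN-beta in blue and LPS minus IFN-gamma in green; bars are the limma SE, n = 2 arrays per group, and dashed lines mark 1 and -1. Egln3 lies farthest right for both, at 2.93 and 2.65, while Vegfa lies at 2.66 against IFN-beta and 0.44 against IFN-gamma.

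The interferons differed from each other in 5 members, where 2.06% of all genes were called higher and 1.9% lower under IFN-beta. Pfkfb3 was higher under IFN-beta at 4 h, at 9.93 and 10.03 against 8.27 and 8.69, which is 2.84-fold (log2 SE 0.12, adjusted p = 3.3e-12). The other 4 were lower under IFN-beta. At 24 h the difference was -2.21 (SE 0.17, adjusted p = 7.3e-13) for Vegfa and -1.28 (SE 0.14, adjusted p = 1.2e-08) for Pfkl. At 4 h it was -1.16 (SE 0.13, adjusted p = 2.2e-08) for Eno2, and at 8 h -1.15 (SE 0.08, adjusted p = 4.1e-14) for Slc16a3. The calls for Pfkfb3 and Eno2 rested on the 4 h IFN-beta arrays of the smaller set, and without it the other 3 were called.

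The turn between 8 and 24 h was tested as a comparison of its own, chosen after the courses had been seen. In BALB/c LPS, 14 of 34 members were higher at 24 h than at 8 h and 0 lower, against 3.28% and 2.78% of all genes. At an unadjusted p under 0.05 in limma's test, 28 members were higher and 0 lower. The largest were Vegfa at 3.08 (SE 0.17, 8.44-fold, adjusted p = 2.3e-17), Egln3 at 2.93 (SE 0.21, 7.63-fold, adjusted p = 1.9e-14), Slc16a3 at 2.18 (SE 0.08, 4.53-fold, adjusted p = 4.6e-23) and Bnip3 at 2.03 (SE 0.14, 4.09-fold, adjusted p = 8.8e-15). Ero1l was higher by 1.71, Pfkl by 1.65, Pdk1 by 1.64, Egln1 by 1.47, Ankrd37 by 1.35 and Pfkfb3 by 1.29. P4ha2, Slc16a1, Slc2a3 and Tpi1 were higher by 1.28, 1.15, 1.12 and 1.05. The calls for Tpi1, Slc2a3 and Slc16a1 were each lost under 1 or 2 alternatives, at 0.94, 0.95 to 0.96, and 0.99.

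In the interferon courses, no member was called higher at 24 h than at 8 h. Under IFN-beta the counts were 0 higher and 1 lower (Vegfa, -1.38 (SE 0.17, adjusted p = 6.9e-08)), against 0.808% and 1.51% of all genes. At an unadjusted p under 0.05 in limma's test, 7 members were higher and 9 lower. Leaving out single arrays gave 1 to 2 calls. Under IFN-gamma 0 members were higher and 0 lower, against 0.425% and 0.367% of all genes, with 9 higher and 2 lower at an unadjusted p under 0.05. Egln3 had 24 h against 8 h differences of 0.05 under IFN-beta and -0.37 under IFN-gamma, and Slc16a3 had 0.15 and 0.14. A difference between courses in this turn was not tested as such.

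In C57BL/6, members were also higher at 24 h than at 8 h at each LPS dose. At 50 ng/ml it was 9 members, against 3.17% of all genes. At 5 ng/ml it was 6, against 3.08%, and at 0.5 ng/ml 4, against 1.37%. At each dose 0 members were lower, where 3.03%, 2.78% and 1.73% of all genes were. In limma's test at an unadjusted p under 0.05, 21, 20 and 22 members were higher and 3, 3 and 0 lower. Egln3 rose by 2.68 (SE 0.21, adjusted p = 2.1e-13), 2.82 (SE 0.21, adjusted p = 6.4e-14) and 2.16 (SE 0.21, adjusted p = 1.3e-10) from the highest dose to the lowest. Slc16a3 rose by 1.89, 1.46 and 1.49, Bnip3 by 1.97, 1.44 and 1.25, and Pfkl by 2.04, 1.65 and 1.17. These 4 were called at all 3 doses and in BALB/c, and a difference between doses in this change was not tested. Vegfa was called at 50 ng/ml (1.81) and 5 ng/ml (2.10) and had a difference of 0.85 at 0.5 ng/ml. At 50 ng/ml Ero1l (1.18), Slc2a1 (1.14), Hk2 (1.03) and Egln1 (1.01) completed the 9, and at 5 ng/ml Hk2 (1.20) completed the 6. At 50 ng/ml, the Hk2 call was lost under quantile normalisation (0.94), and the Egln1 call under quantile normalisation (0.88), without replicate 1 at 8 h (0.92) and without replicate 2 at 24 h (0.94).

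Beside these changes from 8 to 24 h, the summed stromal level went from 282 to 315 at 50 ng/ml, 416 to 320 at 5 ng/ml and 240 to 199.97 at 0.5 ng/ml, against 148 at 0 h. At each dose 2 of 6 stromal markers were called higher than at 0 h. The granulocyte level went from 610 to 415, 584 to 367 and 621 to 714. The part of these lists in the members' changes was not tested.

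**Figure D4:**
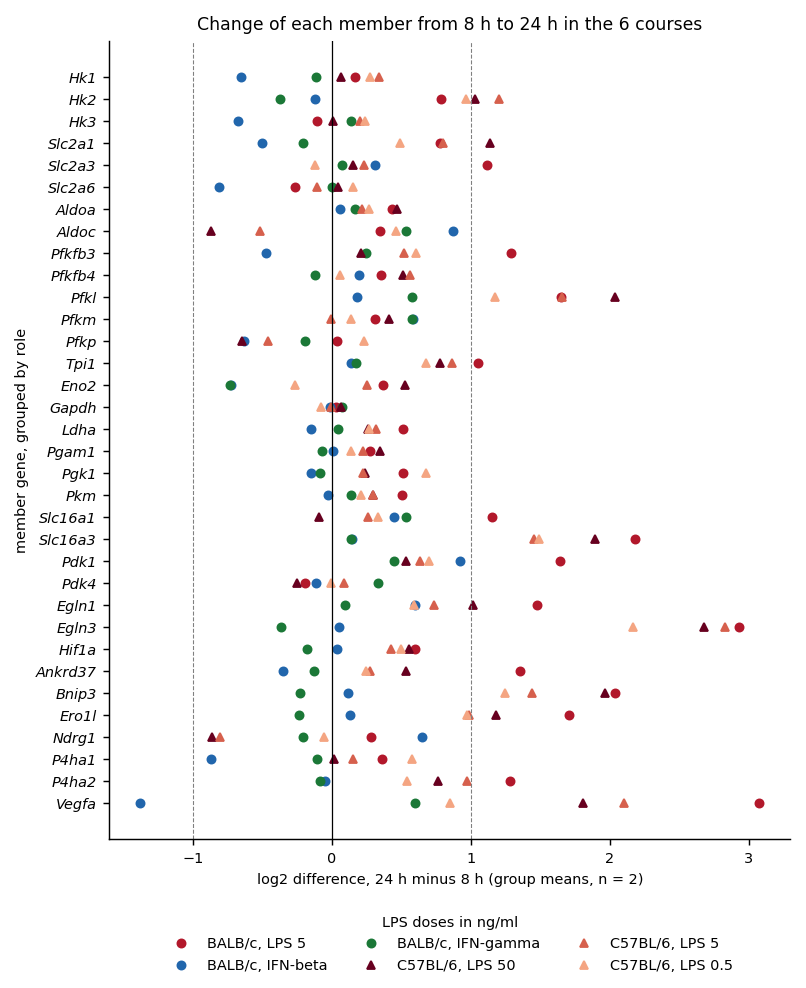
Log2 difference between 24 h and 8 h (x axis) for each of the 34 members (y axis, grouped by role); each point is the difference of group means (n = 2 arrays), circles are BALB/c courses and triangles C57BL/6 courses. Egln3 lies between 2.16 and 2.93 in the 4 LPS courses, and no point of the 2 interferon courses lies right of the dashed line at 1.

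Across doses, a few members differed. LPS at 50 ng/ml against 0.5 ng/ml called 1 member higher and 3 lower, against 2.01% and 1.71% of all genes. Pfkfb3 graded with dose at 8 h, reading 9.90 and 9.86 at 50 ng/ml, 9.35 and 9.22 at 5 ng/ml and 8.33 and 8.45 at 0.5 ng/ml. The arrays of the 3 doses did not overlap, and 50 exceeded 0.5 ng/ml by 1.49 (SE 0.12, 2.81-fold, adjusted p = 4.7e-12). At 24 h it read 10.04 and 10.14, 9.76 and 9.85 and 9.13 and 8.86, in the same order.

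Aldoc, the aldolase best known from brain, was lower at 50 and 5 ng/ml than at 0.5 ng/ml at 24 h. It read 8.95 and 8.93 at 50 ng/ml, 9.21 and 9.45 at 5 ng/ml and 10.09 and 10.71 at 0.5 ng/ml, where the 2 arrays lay far apart. The difference of 50 from 0.5 ng/ml was -1.46 (SE 0.17, adjusted p = 1.8e-07). That of 50 from 5 ng/ml was -0.39 (SE 0.17, adjusted p = 0.51). Replicate 2 of 0.5 ng/ml at 24 h belonged to the smaller set of arrays. Egln3 was lower at 50 ng/ml at 8 h, at 4.81 and 5.16 against 6.01 and 5.98, a difference of -1.01 (SE 0.21, adjusted p = 0.00031). Vegfa was lower at 4 h, at 7.65 and 7.10 against 8.34 and 8.42, a difference of -1.003 (SE 0.17, adjusted p = 7.9e-05). The calls for Egln3 and Vegfa sat at the minimum change: Egln3 lost it without replicate 1 at 8 h of either dose, and Vegfa under 6 alternatives, among them leaving out replicate 2 at 4 h of either dose.

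At 5 against 0.5 ng/ml, 0 members were higher and 3 lower, against 1.16% and 0.999% of all genes. At an unadjusted p under 0.05 in limma's test, 4 were higher and 11 lower. The difference was -1.11 (SE 0.17, adjusted p = 6.5e-06) for Vegfa and -1.06 (SE 0.21, adjusted p = 0.00026) for Egln3, both at 8 h, and -1.07 (SE 0.17, adjusted p = 0.00013) for Aldoc at 24 h. The Aldoc call was lost under 5 alternatives, at -0.95 to -0.76, among them leaving out replicate 1 of 5 ng/ml or replicate 2 of 0.5 ng/ml at 24 h. The Egln3 call was lost without replicate 2 of 5 ng/ml at 8 h. At 50 against 5 ng/ml, 0 members were called either way, against 0.175% and 0.0531% of all genes. There, 2 were higher and 4 lower at an unadjusted p under 0.05 in limma's test, and the largest difference was 0.59, of Pfkfb3.

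**Figure D5:**
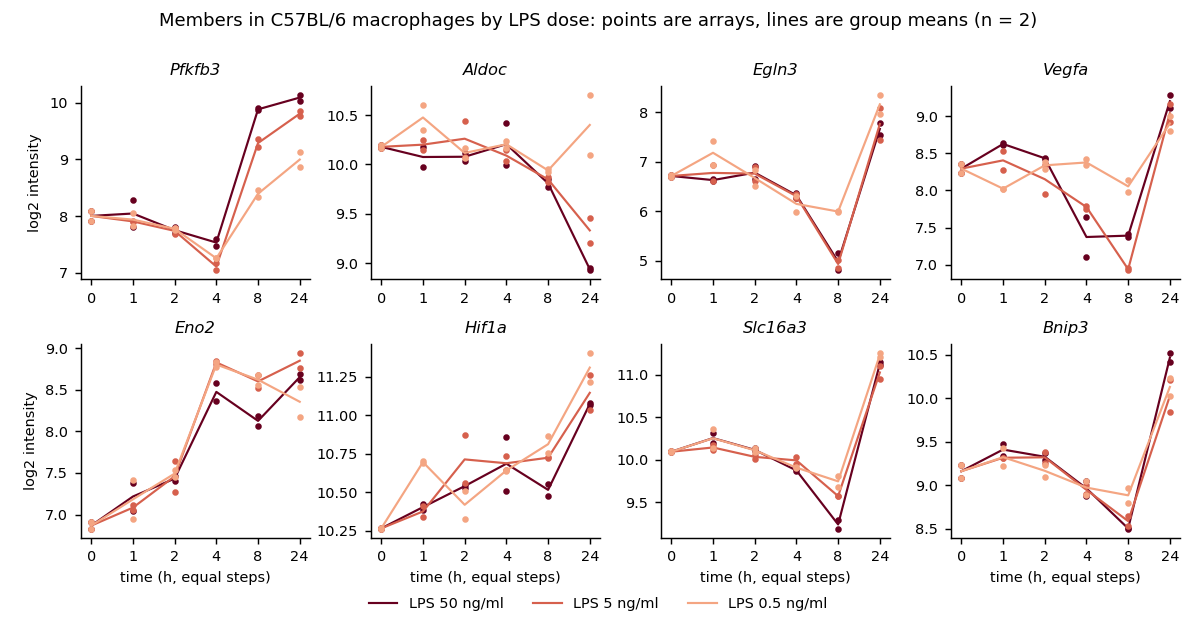
Log2 intensity (y axis) against time in hours (x axis, equal steps) for 8 members in C57BL/6 at 3 LPS doses; points are arrays and lines group means (n = 2). Pfkfb3 separates by dose at 8 and 24 h, Aldoc separates at 24 h, and Egln3, Slc16a3 and Bnip3 fall to 8 h and turn upward by 24 h at every dose.

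Against the C57BL/6 arrays labelled 0 h, LPS at 50 ng/ml called 8 members higher and 7 lower, against 6.26% and 8.73% of all genes. From 1 h it called 8 higher and 9 lower, against 5.95% and 8.64% of all genes. At 5 ng/ml the counts were 6 and 7, against 5.88% and 8.41%, and from 1 h 7 and 7, against 6.29% and 8.6%. At 0.5 ng/ml they were 5 and 2, against 4.02% and 5.09%, and from 1 h 4 and 4, against 4.35% and 6.07%. Scaling moved some of these splits: at 50 ng/ml quantile normalisation gave 8 higher and 4 lower, and at 0.5 ng/ml centring each array on its median gave 9 higher and 0 lower.

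Of the 8 risers at 50 ng/ml, 6 are glycolytic enzymes or carriers. The 3 roles of such genes hold 6, 8 and 8 of the 34 measured members, so most of the list. From 0 h, Pfkfb3 was higher by 2.09 (SE 0.12, 4.25-fold, adjusted p = 1.3e-17), Eno2 by 1.78 (SE 0.13, 3.45-fold, adjusted p = 4.2e-14), Bnip3 by 1.31, Ero1l by 1.25, Hk2 by 1.15, Pfkl by 1.10, Slc2a6 by 1.09 and Slc16a3 by 1.04, all at 24 h. From 1 h the first 7 were 2.05, 1.44, 1.06, 1.12, 1.08, 1.04 and 1.08, all still called, and P4ha1 joined them at 1.06. Slc16a3 had its largest difference from 1 h at 8 h, at -1.02, and was called lower. The fallers from 0 h were led by Egln3 at -1.73 (8 h), Ndrg1 at -1.42 (24 h), Egln1 at -1.34 (8 h) and Aldoc at -1.24 (24 h). From 1 h these were -1.65, -1.43, -1.43 and -1.14. Slc2a3, Slc16a1 and Pdk1 had differences of -1.09, -1.06 and -1.003 from 0 h and of -1.26, -1.02 and -1.07 from 1 h, and Vegfa was called lower from 1 h at -1.25. Quantile normalisation ended the calls for Slc2a3, Slc16a1 and Pdk1 from 0 h, and leaving out replicate 2 at 0 h (-0.92) or replicate 1 at 8 h (-0.96) ended that for Pdk1.

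At 5 ng/ml from 0 h the risers were Eno2 at 1.98, Pfkfb3 at 1.80, Ero1l at 1.37, Slc2a6 at 1.14, Hk2 at 1.12 and Pfkl at 1.07, with Slc2a6 at 8 h and the others at 24 h. From 1 h they were 1.77, 1.90, 1.31, 1.34, 1.12 and 1.04, all called, with P4ha1 at 1.13. The lowest values from 0 h were Egln3 at -1.78 and Vegfa at -1.35, both at 8 h, and from 1 h they were -1.84 and -1.46. Ndrg1 (-1.26 at 24 h) and Egln1, Pdk1, Slc2a3 and Slc16a1 (-1.20, -1.19, -1.10 and -1.04, all at 8 h) were also lower, and all 5 were called from 1 h too. From 0 h, quantile normalisation ended the calls for Slc2a3 (-0.95) and Slc16a1 (-0.87), and leaving out replicate 1 at 8 h ended that for Slc16a1 (-0.84). At 0.5 ng/ml from 0 h Eno2 rose by 1.94, Egln3 by 1.45, Ero1l by 1.33, Slc16a3 by 1.14 and Hif1a by 1.04, with Ndrg1 at -1.06 and Slc16a1 at -1.01 lower. The Hif1a call was lost under quantile normalisation (0.96), with the set of arrays as a covariate (0.89) and without replicate 2 at 24 h (0.95). The Slc16a1 call was lost under both other scalings and without replicate 1 at 8 h (-0.98 to -0.86), and the Ndrg1 call with arrays centred on their medians (-0.99). From 1 h only Eno2 (1.62) and Ero1l (1.05) of these were called higher, Egln3 was called lower (-1.19 at 8 h), and Slc16a3, Hif1a and Ndrg1 were not called. Slc2a6 (1.24) and Pfkfb3 (1.06) were called higher from 1 h, and Slc16a1 (-1.49), Pdk1 (-1.26) and Slc2a3 (-1.17) lower.

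At the shared dose of 5 ng/ml, levels in BALB/c and C57BL/6 differed in 4 members: 1 higher in BALB/c and 3 lower, against 3.52% and 2.01% of all genes. Eno2 was higher in BALB/c at every time, reading 9.50 and 9.22 against 7.05 and 7.12 at 1 h and 10.70 and 10.56 against 8.76 and 8.94 at 24 h. Its difference was 2.28 (SE 0.13, adjusted p = 4.8e-16) at 2 h. Vegfa was lower in BALB/c at 1 h, at 7.09 and 6.68 against 8.28 and 8.53, a difference of -1.52 (SE 0.17, adjusted p = 8.2e-09), and Egln3 at 2 h, at 5.41 and 5.43 against 6.90 and 6.62, a difference of -1.34 (SE 0.21, adjusted p = 7.2e-06). At 24 h these 2 differed by 0.28 and -0.19. The 8 h difference of Pdk1 was -1.40 (SE 0.16, adjusted p = 9.4e-09). Most of the difference in Eno2, Vegfa and Egln3, and part of that in Pdk1, was already present between the arrays labelled 0 h. With each strain measured from its own 0 h arrays, Eno2 differed by 0.66 at 2 h and Vegfa by -0.13 at 1 h. Measured so, Egln3 differed by -0.29 at 2 h and Pdk1 by -0.76 at 8 h. With arrays centred on their medians the split was 2 higher and 3 lower.

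The response itself, the change from 0 h in BALB/c minus that in C57BL/6, differed in 2 members, against 3.27% of all genes higher and 1.4% lower. The responses differed by 1.67 (SE 0.24, adjusted p = 8.2e-06) for Vegfa at 24 h, higher in BALB/c, and the Slc2a3 difference at 8 h was -1.29 (SE 0.16, adjusted p = 7.4e-07), lower in BALB/c. From 1 h, which avoids the C57BL/6 arrays at 0 h, the Vegfa difference at 24 h was 1.80 and still called. Slc2a3 reached -0.97 and was not called. From 1 h, Egln1 (1.14 at 24 h) and Bnip3 (1.10 at 24 h) were called higher and Eno2 (-1.08 at 4 h) lower, so that 3 members were higher and 1 lower, against 1.6% and 2.16% of all genes.

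Over the 32 group means, Pearson's r over the 561 pairs of members ran from -0.86 to 0.94 with a median of 0.22. The pairs named here were chosen as the ends of that range: r was 0.94 between Slc16a3 and Bnip3, 0.94 between Pfkl and Slc16a3 and 0.90 between Slc16a3 and Egln3. Slc2a3 and Slc2a6, both glucose carriers, ran opposite, with r of -0.86. These are descriptions over groups that share treatments and 0 h arrays.

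Genes of the surrounding pathways were read from lists of their own. Of 29 other HIF pathway genes, LPS in BALB/c raised 6 and lowered 3 against 0 h; of all genes, 7.44% were higher and 9.72% lower, which is also the background for the other lists of this course. Adm, the vasodilator adrenomedullin, rose by 2.38 at 2 h, and the glycogen enzymes Gys1 and Gbe1 rose by 1.66 and 1.62. Epas1, the HIF-2 alpha subunit, fell to a difference of -2.38 and Bhlhe40, a transcriptional repressor, to -2.34. Of 25 other glycolysis and pyruvate genes 1 rose and 7 fell: Pgm1, a phosphoglucomutase, rose by 1.38, and Pdp1, the phosphatase that reactivates pyruvate dehydrogenase, fell to a difference of -1.80, the glucose carrier Slc2a8 to -1.71 and Pdk2 to -1.60. The pentose phosphate pathway had 0 of 8 higher and 2 lower, H6pd at -1.50 and Shpk at -1.02. Of 19 genes of the tricarboxylic acid cycle and itaconate, Acod1, which makes itaconate, rose by 4.90 at 24 h and Suclg2, a subunit of succinyl-CoA ligase, fell to a difference of -1.10.

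Of all genes, IFN-beta called 4.05% higher and 3.87% lower, and IFN-gamma 3.1% and 2.27%. Both interferons raised Acod1, by 4.04 (IFN-beta) and 4.08 (IFN-gamma), the 1 gene of that list called in each course. IFN-beta called 1 higher and 2 lower of the other HIF genes (Cited2 at 1.57, Bhlhe40 at -1.42 and Plod2 at -1.02), 1 and 1 of the other glycolysis genes (Pdk3 at 1.51 and Pgm2l1 at -1.24), and Rpe of the pentose phosphate pathway at 1.09. IFN-gamma called 0 higher and 2 lower of the other HIF genes (Bhlhe40 at -1.27 and Epas1 at -1.22) and 0 and 3 of the other glycolysis genes (Pgm2l1 at -1.37, Ldhb at -1.13 and Pdp1 at -1.12).

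Directly compared, LPS was above IFN-beta in 6.19% of all genes and below it in 8.06%, and above IFN-gamma in 6.09% and below it in 7.51%. Of the 29 other HIF genes, LPS was above IFN-beta in 6 and below it in 1, with Adm at 2.56, Gys1 at 1.93, Gbe1 at 1.79 and Epas1 at -1.85. Against IFN-gamma it was above in 5 and below in 2, with Adm at 2.38, Cited2 at 1.75, Hmox1 at 1.59 and Gbe1 at 1.56. For the other glycolysis genes the counts were 1 higher and 6 lower against IFN-beta, with Pdk3 at -1.48 and Pdp1 at -1.47, and 0 and 4 against IFN-gamma, with Pdp1 at -1.27. H6pd was lower under LPS than under IFN-beta (-1.26) and IFN-gamma (-1.40), and Acod1 was higher, by 4.82 at 24 h and 2.62 at 1 h.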

How the data were processed

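The deposited values are probe set intensities on a linear scale, made by the authors with Affymetrix Expression Console 1.1, per the submitters' processing notes; the normalisation method and genome build are not given in the sources used here. Values ran from 2.49 to 17782 with array medians of 25.6 to 29.0, and precision is limited by having 2 arrays per group. They were log2-transformed. Of 35556 probe sets, 21218 had 1 gene symbol, 1881 several and 12457 none in the platform table; 21185 matched the reference by identifier. The brightest probe set stood for a gene (18820 genes).

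R 4.3.3 and limma 3.58.1 fitted 1 mean per group over all 64 arrays (32 residual degrees of freedom), tested on simulated data first. The F-test over 5 times, Benjamini-Hochberg adjustment over all genes, an adjusted p under 0.05 and a change of 1 made a call. The members and lists were chosen with earlier results of these data known, and the 24 h against 8 h comparisons after seeing these courses. Per comparison, the named members are up to 10 called risers and 6 called fallers with the largest differences and up to 5 of the least changed; P4ha1, Hif1a and Ankrd37 were added to account for every call. Up to 4 called genes were named per other list. Array values are given for the 12 members that differed most between LPS and the interferons in BALB/c. Promoters are those of RefSeq (GRCm38.p6). Alternatives covered scaling, probe sets, dim genes, arrays and the reference time.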

Additional observations from a re-analysis of the deposited data

Results flagged for a closer look

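The change of 2 members from 0 h under LPS at 5 ng/ml differed between the strains by limma's test of the difference itself: 1 of 34 higher in BALB/c and 1 lower, where 3.27% of all genes were higher and 1.4% lower. Vegfa rose more in BALB/c at 24 h, with a difference of 1.67 log2 units, and Slc2a3 fell more in BALB/c at 8 h, with a difference of -1.29. Both use the C57BL/6 arrays labelled 0 h. The levels of Vegfa in BALB/c differed from those in C57BL/6 by -1.52 at 1 h and by 0.28 at 24 h (limma's adjusted p = 0.36 at 24 h). Measured from 1 h, Vegfa differed by 1.80 at 24 h and Slc2a3 by -0.97 at 8 h, the latter under the minimum change.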

How the results depend on the processing

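The 141 called member differences were recomputed under every alternative that applied, 3250 values in all. Of these, 1068 differed from the reported value, by up to 0.87, and all kept their sign and an adjusted p under 0.05. That test ignores the minimum change. The direction of a call could still change where the largest difference moved to another time. Measured from 1 h, the calls for Slc16a3 at 50 ng/ml and Egln3 at 0.5 ng/ml went from higher to lower. Without the smaller set of arrays, Pfkfb3 for LPS against IFN-beta went from lower to higher. With the minimum applied, 104 of 141 calls were kept under all alternatives and 37 were lost under at least 1. Of those, the calls for Slc2a3 and Slc16a1 at LPS 5 ng/ml, Hif1a and Slc16a1 at 0.5 ng/ml from 0 h, and Hk2 and Egln1 at 50 ng/ml for 24 h against 8 h were lost under scaling or when single arrays were left out, and calls lost in the BALB/c and dose comparisons are named beside the results. With no minimum change, the members called of 34 were set against the percentage of all genes called by the same rule. In BALB/c from 0 h they were 31 (91.2%) against 47.7% (LPS), 25 (73.5%) against 37.4% (IFN-beta) and 21 (61.8%) against 28.9% (IFN-gamma). Between agents they were 29 (85.3%) against 41.2% (LPS against IFN-beta), 30 (88.2%) against 42.1% (LPS against IFN-gamma) and 23 (67.6%) against 18.3% (between interferons). In C57BL/6 from 0 h they were 31 (91.2%) against 46.4% (50 ng/ml), 28 (82.4%) against 46.4% (5 ng/ml) and 27 (79.4%) against 40.1% (0.5 ng/ml). Between doses they were 18 (52.9%) against 25.3% (50 against 0.5 ng/ml), 2 (5.88%) against 0.962% (50 against 5) and 11 (32.4%) against 17.6% (5 against 0.5). Between strains they were 21 (61.8%) against 31.2% (levels) and 17 (50%) against 15.6% (response). For 24 h against 8 h in BALB/c they were 26 (76.5%) against 26.3% (LPS), 15 (44.1%) against 15.9% (IFN-beta) and 5 (14.7%) against 5.92% (IFN-gamma). In C57BL/6 they were 23 (67.6%) against 27.1% (50 ng/ml), 22 (64.7%) against 26.3% (5 ng/ml) and 18 (52.9%) against 17.2% (0.5 ng/ml). With only the larger set of arrays the interferons differed in 3 members (5 reported), and from 1 h the strain response differed in 4 (2 reported). Leaving out 1 array at a time gave 18 to 20 members for BALB/c LPS, 5 to 8 for IFN-beta, 2 to 3 for IFN-gamma, 14 to 16 and 10 to 12 for LPS against IFN-beta and IFN-gamma, 5 to 6 between interferons, 14 to 16, 12 to 15 and 6 to 10 for C57BL/6 LPS at 50, 5 and 0.5 ng/ml, 3 to 4, 0 and 2 to 3 for 50 against 0.5, 50 against 5 and 5 against 0.5 ng/ml, 4 to 5 for strain levels, 2 to 3 for the strain response, and, for 24 h against 8 h, 13 to 14, 1 to 2 and 0 in BALB/c (LPS, IFN-beta, IFN-gamma) and 8 to 9, 6 to 7 and 4 to 6 in C57BL/6. A lone array left in a group is assumed to vary like the others. Centring on array medians moved the median of all genes by more than 0.1 at 1 h in C57BL/6: 0.10 and 0.12 for LPS 50 and 5 ng/ml from 0 h, and 0.11 for 5 against 0.5 ng/ml. With the replicate number as a block BALB/c LPS called 19 members, the reported count. Correlations of replicate differences between groups ran from -0.47 to 0.55 with a median of 0.0046, and 9.27% were over 0.1. A median cannot show whether replicate numbers pair the arrays of some groups, and this was not tested. The cause of these shifts was not tested. With 2 arrays per group, differences near the minimum change can fall on either side of it, and a dim gene such as Pdk4 carries little information.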
